A study of Mus musculus with 27 samples.

Results

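Mrc1 and Siglec1, the genes of the tissue macrophage lectins CD206 and CD169, were followed in monocyte-derived cells that had entered the small intestine of recipient mice. Both were taken by name from the table of raw counts, and they are 2 of the 57 genes with values on a panel of 67. CD11b+Ly6C+ monocytes from the bone marrow of C57BL/6 donors were injected into C57BL/6 CCR2-/- recipients. The study's methods name WT or CX3CR1gfp/+ donors for such transfers, and its results call the profiled donor monocytes WT. From each recipient, 100 cells of donor origin were recovered by sorting from the small intestine on day 1, 2 or 5. Gene-specific pre-amplification of their cDNA was followed by NanoString nCounter counting, which reads single barcoded probes without sequencing.

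Manipulated recipients had their small intestine surgically handled 1 day before the transfer, which brings sterile inflammation, and they numbered 5, 4 and 4 mice at days 1, 2 and 5. Non-manipulated recipients had no operation at all and numbered 5, 5 and 4. All 27 recipients lacked CCR2, the receptor that monocytes use to leave the bone marrow, while the counted donor cells carried it. Manipulation came together with anaesthesia by ketamine and xylazine, with opening of the abdomen and with the analgesic Novalgin, so that the arms differ in these as well. Several experiments were pooled, and no label ties a mouse to its experiment.

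Both proteins are surface lectins of tissue macrophages. The mannose receptor CD206, encoded by Mrc1, binds mannose-rich and sulphated sugars through C-type lectin domains and carries its ligands into the cell. It is widely used as a marker of resident and of alternatively activated macrophages, and blood monocytes carry little of it. CD169, or sialoadhesin, encoded by Siglec1, binds sialic acid on other cells and on pathogens, marks macrophages of lymphoid organs and a macrophage population of the gut, and its gene is known to respond to type I interferon. Newly arrived Ly6C+ monocytes of the gut lose Ly6C and take on macrophage genes as they mature.

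Mrc1 lies on mouse chromosome 2 (chr2:14229414-14332023 in the RefSeq annotation of GRCm38.p6), and its probe covered bases 3993 to 4092 of the transcript. Siglec1, listed in the files as Siglec-1, lies on the same chromosome at chr2:131067801-131086778, and its probe covered bases 4551 to 4650. Each probe read 100 bases, and the counts of different probes cannot be set against each other, since pre-amplification and capture differ by gene. The 250 bases before the Mrc1 start (chr2:14229164-14229413, plus strand, RefSeq, GRCm38.p6) are shown because they are the promoter of the gene whose level is followed here, with matches to GAGGAA, the core bound by the myeloid factor PU.1, in capitals.
Mrc1 promoter: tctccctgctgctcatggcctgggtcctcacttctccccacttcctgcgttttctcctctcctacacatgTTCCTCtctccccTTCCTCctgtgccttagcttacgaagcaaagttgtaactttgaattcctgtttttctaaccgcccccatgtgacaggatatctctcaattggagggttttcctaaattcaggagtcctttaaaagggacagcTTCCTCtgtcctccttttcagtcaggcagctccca
On both strands 3 matches were found, all on the minus strand and so written TTCCTC, with their first base at -180, -167 and -35 from the start, and 23.3% of 32851 promoter windows of the same length hold at least 1 match.

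Total counts of the tested genes ran from 597997 to 1347007 per lane, and 54 to 57 of the 57 genes were above background, set for each lane at 2 SD above the mean of its 5 negative controls (14.9 to 49.8 counts). Levels are given as scaled counts, the count divided by the geometric mean of Actb, Gapdh and Rpl19 in that lane and multiplied by the average of these over all lanes. In 12 lanes, those of mice 3 and 4 of every group, the deposited values were whole multiples of 1.333 for a reason not given, and the results for Mrc1 and Siglec1, and those for list genes that differ between them in call or direction, are also given for these and for the other 15 lanes separately. The lanes of manipulated day 1 mice 3 and 4 stood apart from the rest in their positive controls, and from their own group in Ly6c1. Their positive-control probes summed to 4927 and 4659 counts, against 10113 to 37955 in the other 25 lanes. Ly6c1, a gene of the Ly6C antigen of young monocytes, stood at 602 and 676 scaled counts in these lanes, against 47248, 10398 and 27091 in manipulated day 1 mice 1, 2 and 5. Levels this low were also seen at later days, at 145 and 144 in non-manipulated day 2 mice 2 and 3 and between 69.8 and 560 in manipulated day 2 mice.

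Mrc1 was low at day 1 in most mice and higher at the later days. Manipulated recipients had 73.1, 69.0, 561, 603 and 57.3 scaled counts of Mrc1 in mice 1 to 5 at day 1. At day 2 the manipulated mice had 1852, 341, 1518 and 908, and at day 5 they had 252, 559, 2014 and 3452. Mice 3 and 4 were the highest of their group at days 1 and 5. Non-manipulated recipients had 92.3, 216, 76.0, 56.9 and 77.1 scaled counts at day 1, 134, 263, 278, 224 and 777 at day 2, and 427, 413, 354 and 284 at day 5. The spread was narrowest in non-manipulated mice at day 5, where the SD of the log2 level was 0.27, and widest in manipulated mice at day 5 and day 1, where it was 1.72 and 1.71. Every Mrc1 count was above the background of its lane, by 1.76 to 6.52 times in non-manipulated mice at day 1. In manipulated day 1 mice 1, 2 and 5 it was 1.84 to 3.64 times background, so day 1 contrasts in the other lanes compare values near the floor.

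**Figure D1:**
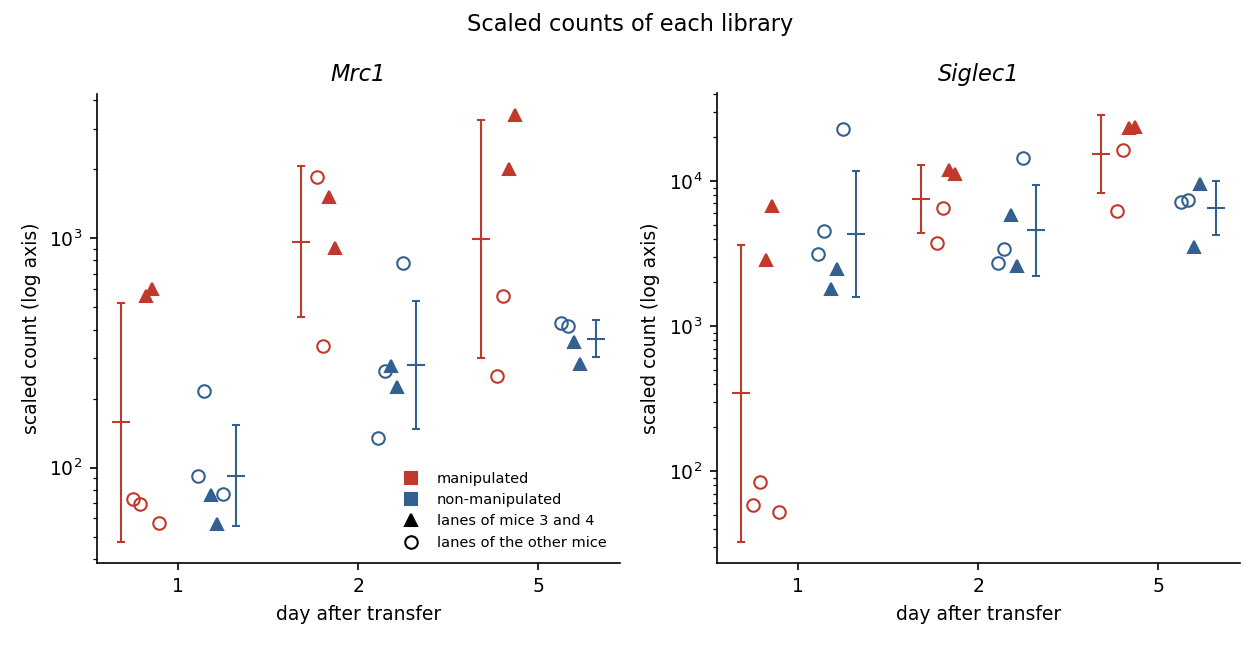
Scaled counts (log axis) of Mrc1 (left) and Siglec1 (right) by day after transfer, 1 symbol per mouse, red for manipulated and blue for non-manipulated recipients, filled triangles for the lanes of mice 3 and 4 and open circles for the other lanes, with bars for the geometric mean and 1 SD of the log2 values. At day 1 the manipulated mice split into 2 sets, with Siglec1 at 2873 and 6682 in mice 3 and 4 and between 51.9 and 83.8 in mice 1, 2 and 5.

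In the manipulated arm Mrc1 rose over time, and the call depended on the fit. Its level at day 5 exceeded that at day 1 by 2.53 ± 0.77 on the log2 scale (± SE, edgeR, adjusted p = 0.0129, 4 and 5 mice), although the groups overlapped and 2 of the 4 day 5 mice lay above all day 1 mice. Of all 57 genes, 40.4% passed in this comparison and 26.3% had groups that did not overlap. The call was lost with the authors' normalization factor (1.35, adjusted p = 0.236, where the median of all genes moved by -0.84), in a fit of the 2 groups alone (adjusted p = 0.0895), in the exact permutation test (p = 0.0952, two-sided) and without manipulated day 5 mouse 4 (1.79, adjusted p = 0.0705). Without the 2 lanes of low positive controls the change was 4.56 ± 0.87 (adjusted p = 0.000474), an alternative chosen after seeing the data. These were the 2 manipulated day 1 lanes with the highest Mrc1, so leaving them out could only lower that group in every comparison. In bulk samples of sorted cells, fewer cells of a type and less RNA per cell cannot be told apart.

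Between neighbouring days in the manipulated arm, neither step of Mrc1 passed. Day 2 stood 2.08 ± 0.76 above day 1 (adjusted p = 0.145), where 1.75% of genes passed, and day 5 stood 0.44 ± 0.79 above day 2 (adjusted p = 0.721), where 5.26% passed. Without the 2 lanes of low positive controls the step to day 2 was 4.12 ± 0.85 (adjusted p = 0.00128), and limma also called it at 2.60 (adjusted p = 0.0457). Tested over the 3 days jointly, Mrc1 changed in manipulated mice (adjusted p = 0.0324, 35.1% of genes passing). This joint call for Mrc1 was lost with the authors' factor (adjusted p = 0.444), after background subtraction (adjusted p = 0.0604) and without Rpl19 in the scaling (adjusted p = 0.0563).

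Mrc1 in the non-manipulated arm followed a like order of levels, with all 4 day 5 mice above all 5 day 1 mice, as 21.1% of genes did in either direction. The difference was 1.83 ± 0.76 (edgeR, adjusted p = 0.0756), short of the threshold, and 19.3% of genes passed. It passed in DESeq2 (adjusted p = 0.0344), in a fit of the 2 groups alone (adjusted p = 0.00809) and in the exact permutation test (difference of mean log2 levels 1.97, p = 0.0159, two-sided). Between days 1 and 2 it differed by 1.69 ± 0.73 (adjusted p = 0.127, 14% of genes passing; exact permutation p = 0.0159 on a difference of 1.59), and between days 2 and 5 by 0.14 ± 0.75. No change over the 3 days passed (adjusted p = 0.138, 21.1% of genes passing).

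Manipulated mice had higher Mrc1 means than non-manipulated mice at each day, and none of the 3 differences passed in the main fit. The log2 differences were 1.39 ± 0.72 at day 1 (adjusted p = 0.130), 1.78 ± 0.76 at day 2 (adjusted p = 0.0664) and 2.09 ± 0.83 at day 5 (adjusted p = 0.0610), while 42.1%, 31.6% and 24.6% of genes passed at these days. Of the manipulated mice, 2 of 5 lay above every non-manipulated mouse at day 1, 3 of 4 at day 2 and 3 of 4 at day 5, and the remaining day 5 mouse lay below all of them. No overlap between the arms was seen for 33.3%, 28.1% and 15.8% of genes at these days. At day 1 the direction turned without the 2 lanes of low positive controls (-0.64, adjusted p = 0.504), and with the authors' factor the difference passed (2.28, adjusted p = 0.0435). At day 2 it passed in DESeq2 (adjusted p = 0.0334), in the exact permutation test (p = 0.0317, two-sided) and without non-manipulated day 2 mouse 5 (2.36, adjusted p = 0.0374). At day 5 DESeq2 called it (adjusted p = 0.0236), as did the fits without manipulated day 5 mouse 1 (2.44, adjusted p = 0.0287) or mouse 2 (2.37, adjusted p = 0.0494). The manipulation effect on Mrc1 at day 5 exceeded that at day 1 by 0.69 ± 1.07 (adjusted p = 0.647, 19.3% of genes passing), and by 2.73 ± 0.99 without the 2 lanes of low positive controls (adjusted p = 0.0431).

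Siglec1 was near background in 3 manipulated mice at day 1 and far above it in every other mouse. In manipulated recipients it stood at 58.8, 83.8, 2873, 6682 and 51.9 scaled counts in mice 1 to 5 at day 1, at 3742, 6517, 11821 and 11103 at day 2, and at 6233, 16381, 23090 and 23497 at day 5. The counts of mice 1, 2 and 5 at day 1 were 1.67 to 4.42 times the background of their lanes. In non-manipulated recipients the lowest mouse of day 1 already stood at 1809, with 3133, 4546, 1809, 2477 and 22975 scaled counts, followed by 2711, 3373, 5832, 2608 and 14477 at day 2 and 7213, 7373, 3520 and 9494 at day 5. Mouse 5 was the highest non-manipulated mouse at days 1 and 2.

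Over time Siglec1 rose in manipulated mice. Its day 5 level exceeded the day 1 level by 3.15 ± 1.07 on the log2 scale (adjusted p = 0.0202, 40.4% of genes passing), and 3 of the 4 day 5 mice lay above all day 1 mice. The exact permutation test gave a difference of mean log2 levels of 5.46 (p = 0.0317, two-sided), and the call held when any single mouse was left out (2.84 to 4.50). It was lost with the authors' factor (1.86, adjusted p = 0.213) and in a fit of the 2 groups alone (adjusted p = 0.122). The steps of Siglec1 were 2.09 ± 1.04 between days 1 and 2 (adjusted p = 0.262, exact permutation p = 0.0476 on a difference of 4.43) and 1.06 ± 1.09 between days 2 and 5 (adjusted p = 0.510). Tested over the 3 days jointly, the change of Siglec1 in manipulated mice did not pass in the main fit, where 35.1% of genes did. Without the 2 lanes of low positive controls, an alternative chosen after seeing the data, the change between days 1 and 5 was 8.06 ± 1.08 (adjusted p = 8.03e-06). These were the 2 manipulated day 1 lanes with the highest Siglec1, so leaving them out could only lower that group. It also left that group without lanes of mice 3 and 4, which the other groups kept.

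No change over time passed for Siglec1 in non-manipulated mice. Day 5 differed from day 1 by -0.018 ± 1.02 (adjusted p = 0.986, 19.3% of genes passing). That value rests on mouse 5 of day 1, without which it was 1.21 (adjusted p = 0.476). The joint test over the 3 days gave an adjusted p of 0.955.

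At day 1 Siglec1 was lower in manipulated mice in the mean, and at day 5 it was higher, without either difference passing. The log2 differences between manipulated and non-manipulated mice were -1.84 ± 1.00 at day 1 (adjusted p = 0.140), 0.52 ± 1.02 at day 2 (adjusted p = 0.781) and 1.33 ± 1.10 at day 5 (adjusted p = 0.387). At day 1, 3 of the 5 manipulated mice lay below every non-manipulated mouse, and at day 5, 3 of the 4 lay above. The day 1 difference in Siglec1 was -0.62 without non-manipulated day 1 mouse 5 (adjusted p = 0.642) and -0.66 with the authors' factor (adjusted p = 0.667), and the exact permutation test on a difference of -3.62 gave p = 0.103 (two-sided). It passed in limma (-3.62, adjusted p = 0.00557), without manipulated day 1 mouse 4 (-3.19, adjusted p = 0.0165) and without both lanes of low positive controls (-6.75 ± 1.01, adjusted p = 9.44e-06). Those lanes had the highest Siglec1 of manipulated day 1, so the direction of the shift without them was fixed beforehand. The manipulation effect changed by 3.17 ± 1.48 between days 1 and 5 (adjusted p = 0.152), by 4.52 without manipulated day 1 mouse 4 (adjusted p = 0.0305) and by 8.08 ± 1.20 without both lanes (adjusted p = 3.77e-05).

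**Figure D2:**
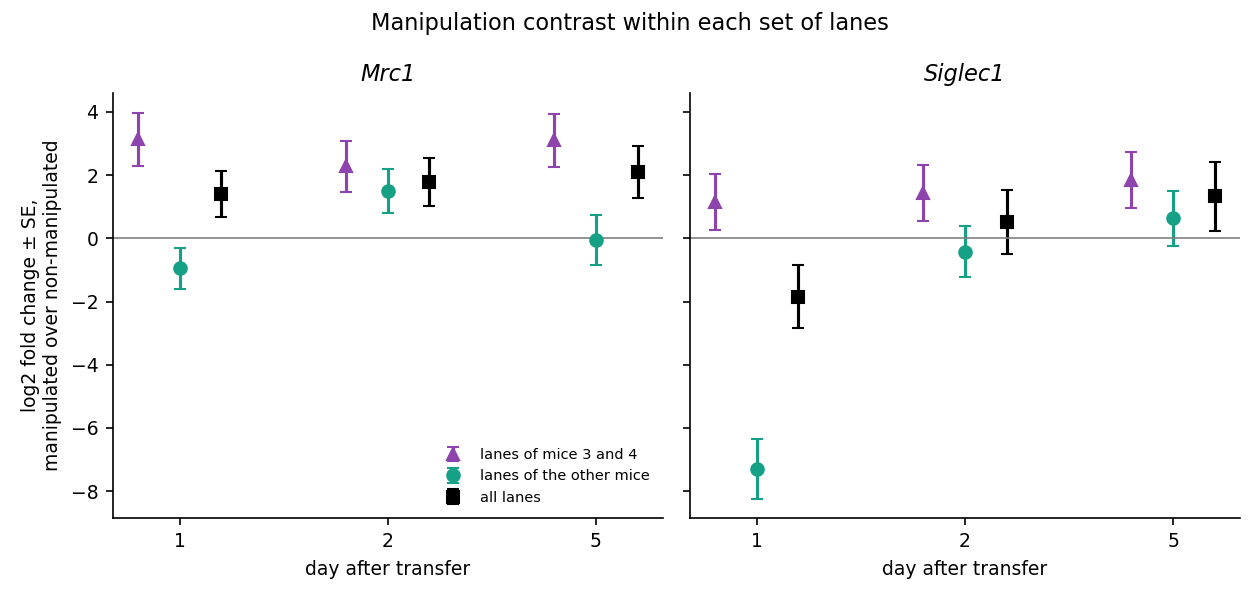
Log2 fold change ± SE of manipulated over non-manipulated mice by day after transfer for Mrc1 (left) and Siglec1 (right), in the lanes of mice 3 and 4 (purple triangles), in the other lanes (green circles) and in all lanes (black squares). The 2 sets of lanes lie on opposite sides of 0 at day 1, at 3.13 and -0.95 for Mrc1 and at 1.16 and -7.30 for Siglec1.

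The 2 sets of lanes gave contrasts of opposite sign at day 1 for both genes, in a fit with a mean for each group and set. For neither gene did both contrasts pass. In the lanes of mice 3 and 4 both manipulated mice lay above both non-manipulated mice for Mrc1 and for Siglec1, at every day. As many as 75.4%, 71.9% and 66.7% of genes did not overlap in these 2 against 2 comparisons at days 1, 2 and 5. In the other lanes all 3 manipulated mice lay below all 3 non-manipulated mice at day 1 for both genes, where 50.9% of genes did not overlap.

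Mrc1 in manipulated mice at day 1 was 3.13 ± 0.84 above non-manipulated mice in the lanes of mice 3 and 4 (adjusted p = 0.0113, 19.3% of genes passing) and differed by -0.95 ± 0.64 in the other lanes (adjusted p = 0.268, 36.8% passing). The difference between the sets, 4.08 ± 1.05, passed (adjusted p = 0.0264). For Siglec1 the contrast was 1.16 ± 0.88 in the lanes of mice 3 and 4 (adjusted p = 0.386), and Siglec1 fell by 7.30 ± 0.94 in the other lanes (adjusted p = 4.98e-06). The difference between the sets was 8.46 ± 1.31 (adjusted p = 0.000157). Mrc1 and Siglec1 were the 2 genes, 3.51% of all, that passed in this test of the difference. After subtracting the background from every count the differences were 5.37 for Mrc1 and 9.27 for Siglec1, both passing. That of Mrc1 missed the threshold when any of 6 single mice was left out (highest adjusted p = 0.226, without non-manipulated day 1 mouse 4), and that of Siglec1 passed without any single mouse.

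At day 2 the sets of lanes were closer, with Mrc1 contrasts of 2.27 ± 0.81 and 1.48 ± 0.70 and Siglec1 contrasts of 1.44 ± 0.88 and -0.42 ± 0.80 in the lanes of mice 3 and 4 and in the other lanes. The differences between the sets were 0.79 ± 1.05 (adjusted p = 0.776) and 1.86 ± 1.19 (adjusted p = 0.662), and 0% of genes passed. At day 5 Mrc1 was 3.10 ± 0.84 higher in manipulated mice in the lanes of mice 3 and 4 (adjusted p = 0.0203, 21.1% of genes passing), while the contrast was -0.052 ± 0.78 in the other lanes (adjusted p = 0.964, 15.8% passing). This difference of 3.15 ± 1.12 did not pass (adjusted p = 0.126, 5.26% passing). Siglec1 at day 5 differed by 1.84 ± 0.90 in the lanes of mice 3 and 4 and by 0.63 ± 0.87 in the other lanes, neither passing.

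Over time in manipulated mice, the change of Mrc1 between days 1 and 5 was 2.23 ± 0.81 in the lanes of mice 3 and 4 (adjusted p = 0.0636, 15.8% of genes passing) and 2.61 ± 0.71 in the other lanes (adjusted p = 0.00730, 42.1% passing). With the authors' factor these values for Mrc1 were 0.94 and 2.30. The change of Siglec1 was 2.29 ± 0.91 in the lanes of mice 3 and 4 (adjusted p = 0.0784) and 7.45 ± 0.96 in the other lanes (adjusted p = 1.08e-05). That difference of -5.16 ± 1.23 passed (adjusted p = 0.0133, 8.77% of genes passing), and it missed the threshold without manipulated day 1 mouse 4 (-4.43, adjusted p = 0.0576) or manipulated day 5 mouse 3 (-5.15, adjusted p = 0.145).

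**Figure D3:**
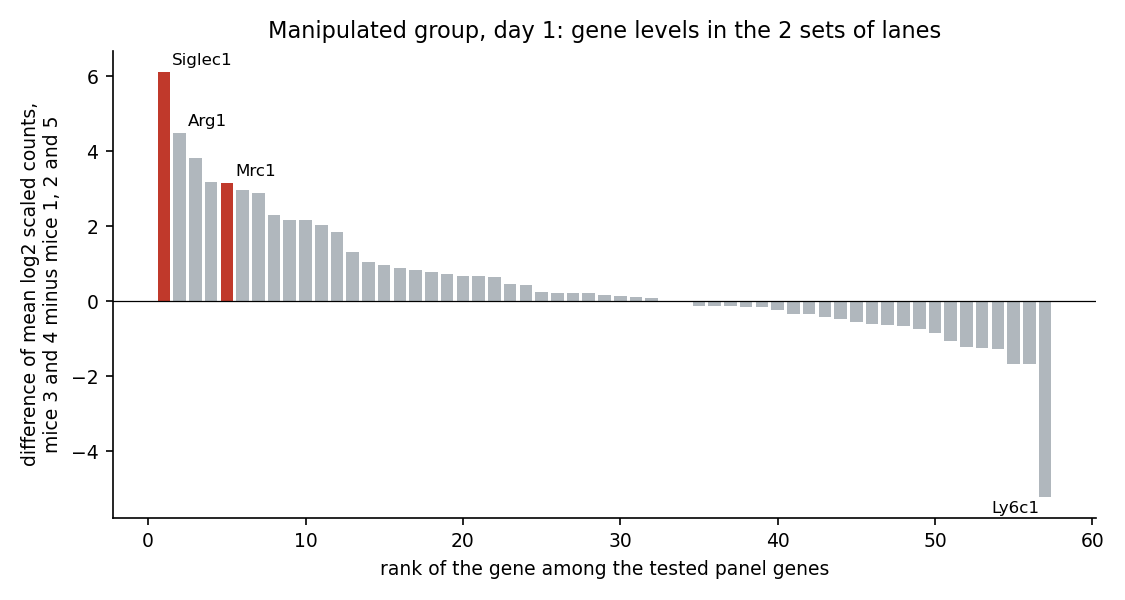
Difference of mean log2 scaled counts between mice 3 and 4 and mice 1, 2 and 5 of the manipulated group at day 1, for the 57 tested genes in order of that difference, with Mrc1 and Siglec1 in red. Siglec1 (6.11) ranked first, Mrc1 (3.14) ranked 5 and Ly6c1 (-5.22) ranked last.

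Within the manipulated mice of day 1, other genes differed between the sets of lanes as well. Siglec1 had the largest excess in mice 3 and 4 over mice 1, 2 and 5 of the 57 genes (6.11 on the log2 scale), followed by Arg1, the arginase of alternatively activated macrophages (4.48), H2-Ab1, an MHC class II chain (3.81), and Itgax, which encodes CD11c (3.17). Mrc1 ranked 5 with 3.14. Ly6c1 stood at the other end (-5.22), while Ccr2, another gene of young monocytes, was higher in mice 3 and 4 (2.17, with 34876 and 38699 scaled counts, against 4899 to 17652 in mice 1, 2 and 5). The summed macrophage markers Csf1r, Adgre1, Cd68, Fcgr1 and Cx3cr1 ran from 66931 to 68745 scaled counts in mice 3 and 4 and from 22987 to 48366 in mice 1, 2 and 5. The sum leans on probes with high counts, with Fcgr1 the largest part in mice 3 and 4 (32065 to 37417). Csf1r and Cx3cr1 overlapped between the sets, while Adgre1, Cd68 and Fcgr1 did not. Ccr7, the 1 dendritic cell marker with values, ran from 921 to 3277 and from 1152 to 1799 in the same sets. The part of these values and of the low positive controls in the results for Mrc1 and Siglec1 was not tested.

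In order of geometric mean, Mrc1 was lowest in non-manipulated day 1 (92.1 scaled counts), then in manipulated day 1 (158), non-manipulated day 2 (280), non-manipulated day 5 (365), manipulated day 2 (966) and manipulated day 5 (994). Siglec1 was lowest in manipulated day 1 (345), then in non-manipulated day 1 (4298), day 2 (4579) and day 5 (6493), and highest in manipulated day 2 (7522) and day 5 (15341). Every pair of neighbours in both orders had overlapping ranges.

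Across samples Mrc1 and Siglec1 went together in their deviations from the group means, with Pearson's r = 0.70 (permutation p = 5e-05) and Spearman's rho = 0.69 (permutation p = 0.00016) over 27 samples, as 1 relation tested two-sided. Without the 2 samples farthest from the median of Mrc1, r was 0.58 (permutation p = 0.00259). Centring left 21 independent deviations, and the permutation treated all 27 values as exchangeable, so its p-values are approximate. Within the sets of lanes no relation was seen. With 6 independent deviations in those of mice 3 and 4 and 9 in the others, these tests could hardly show one. In the lanes of mice 3 and 4, r was -0.024 (rho = -0.077, permutation p = 0.939 and 0.816, 12 samples), and in the other lanes it was 0.22 (rho = 0.20, permutation p = 0.436 and 0.473, 15 samples). After groups and sets of lanes were both centred, an alternative chosen after seeing the data, r was 0.18 (permutation p = 0.363, 15 independent deviations).

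**Figure D4:**
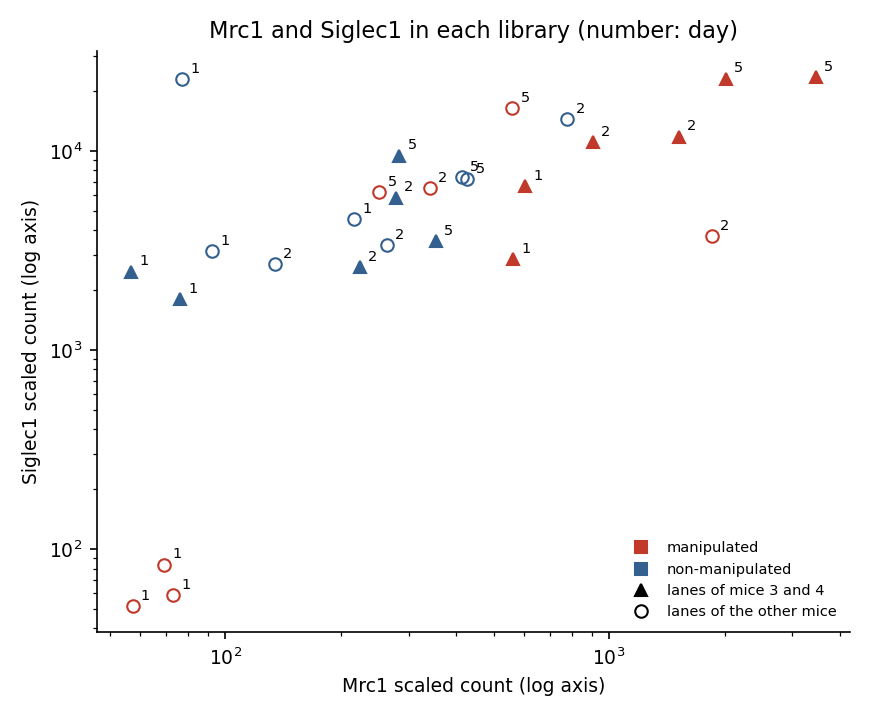
Scaled counts of Mrc1 (horizontal, log axis) against Siglec1 (vertical, log axis) in each of the 27 mice, red for manipulated and blue for non-manipulated, filled triangles for the lanes of mice 3 and 4, open circles for the other lanes, each labelled with its day. Manipulated day 1 mice 1, 2 and 5 form a set of their own at the lower left, with both genes below 84 scaled counts.

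The genes with levels most like Mrc1 over the 27 samples, by Pearson's r of log2 levels and as a description, were Adgre1 (0.72), an adhesion receptor gene used to mark mouse macrophages, Siglec1 itself (0.65), the monocyte chemokine Ccl7 (0.64), the regulatory cytokine Il10 (0.60) and the lipid receptor Trem2 (0.59). For Siglec1 they included H2-Ab1 (0.71), Adgre1 (0.68), Mrc1 (0.65) and Fcgr1 (0.64), the gene of CD64. All points shared the housekeeping scaling. Within groups, r between Mrc1 and Adgre1 was 0.74 and between Mrc1 and Il10 0.093.

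Around the lectins, the lists of macrophage genes were written from textbook roles, without Mrc1 and Siglec1 in their counts. Of the 7 measured mature macrophage genes, 4 fell and 0 rose in manipulated mice at day 1, with a median of -1.10 against -0.076 over all 57 genes, of which 42.1% passed. These were the fractalkine receptor Cx3cr1 (-3.70 ± 0.79, adjusted p = 0.000661), Itgax (-2.38), H2-Ab1 (-2.08) and the growth factor receptor Csf1r (-1.10). Cx3cr1 was close to background in these manipulated mice, at 128 to 137 scaled counts in mice 3 and 4 and 47.5 to 180 in mice 1, 2 and 5. The size of its fall depends on that floor. With the authors' factor only Cx3cr1 of these 4 genes passed, and H2-Ab1 and Csf1r also missed the threshold without Rpl19. In the lanes of mice 3 and 4 only Cx3cr1 fell (-3.87), and in the other lanes Cx3cr1 (-3.51), Itgax (-4.23) and H2-Ab1 (-3.55) fell. At day 2, 2 of the 7 fell, Itgax (-2.44) and Cx3cr1 (-2.16), where 31.6% of all genes passed. Between days 1 and 5 in manipulated mice 4 of them rose and 0 fell, with a median of 1.59 against 0.17 over all genes, namely Cx3cr1 (3.74), H2-Ab1 (2.83), Adgre1 (2.51) and Csf1r (1.56), where 40.4% of genes passed. With the authors' factor only Cx3cr1 of these passed. In the lanes of mice 3 and 4 Cx3cr1 and Csf1r rose, and in the other lanes H2-Ab1 and Itgax. In the non-manipulated arm 0 of the 7 passed over the same days, where 19.3% of all genes did, 2.06 ± 0.76 being the value of H2-Ab1 (adjusted p = 0.0556).

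Of 7 measured genes of alternative activation, 4 rose in manipulated mice at day 5 and 0 fell, with a median of 3.61 against 0.59 over all genes, of which 24.6% passed. They were Arg1 (9.02 ± 1.88, adjusted p = 0.00121), the resistin-like gene Retnla (5.92), the chitinase-like gene Chil3 (4.36) and Trem2 (3.61). Arg1 and Trem2 passed in both sets of lanes, whereas Retnla was 0.56 in the lanes of mice 3 and 4 (adjusted p = 0.804) and 6.92 in the other lanes (adjusted p = 0.0101), and Chil3 was 2.33 (adjusted p = 0.106) and 4.68 (adjusted p = 0.00628). At day 1, 1 of the 7 rose (Arg1, 6.12) and 1 fell (Retnla, -4.37), where 42.1% of all genes passed. Retnla was near background in manipulated day 1 mice, at 73.3 to 79.2 scaled counts in mice 3 and 4 and 44.1 to 56.3 in the others. Within the sets of lanes Arg1 and Retnla both passed at day 1 in those of mice 3 and 4, with 9.62 for Arg1 and -5.31 for Retnla, and neither in the other lanes, with 2.36 and 0.30. The difference between the sets passed for neither gene at day 1, nor for Retnla at day 5 (adjusted p = 0.126). At day 2, 2 rose, Chil3 (3.33) and Trem2 (2.26), and 2 fell, the chemokine gene Ccl22 (-2.04) and the transcription factor gene Irf4 (-1.81), where 31.6% of all genes passed. Between days 1 and 5 in manipulated mice Retnla (5.47) and Trem2 (2.91) rose and Chil3 fell (-3.41), where 40.4% of all genes passed. In non-manipulated mice Chil3 (-7.29) and Retnla (-4.81) fell over the same days, where 19.3% passed. The rise of Retnla in manipulated mice differed between the sets of lanes, at -0.22 in those of mice 3 and 4 and 6.74 in the others (adjusted p = 0.0388 for the difference).

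The interferon-induced chemokine genes Cxcl9 and Cxcl11 fell in manipulated mice at day 1 (-4.57 and -2.28) and at day 2 (-4.15 and -3.38), and Cxcl9 also fell at day 5 (-3.04). In manipulated day 1 mice 1, 2 and 5, Cxcl9 ran from 48.7 to 132 scaled counts and Cxcl11 from 39.6 to 521. In mice 3 and 4 they ran from 77.8 to 84.5 and from 83.4 to 110. Most of these levels lay near background, so the size of the day 1 falls depends on the floor. Of these calls, that of Cxcl11 at day 1 and that of Cxcl9 at day 5 were lost without Rpl19 and, like that of Cxcl11 at day 2, with the authors' factor. Within the sets of lanes only Cxcl9 in the other lanes passed, at day 1 (-4.37) and day 2 (-5.51). Cxcl10, the other measured chemokine gene of this kind, passed at none of these days (-0.83, -0.92 and -0.84). Of all genes, 42.1%, 31.6% and 24.6% passed at days 1, 2 and 5.

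Ccl8, a chemokine that CD169-positive gut macrophages are known to secrete in mice, rose in manipulated mice at day 5 by 1.32 ± 0.34 (adjusted p = 0.00476) and between days 1 and 5 in that arm by 1.72 ± 0.31 (adjusted p = 0.000268). The day 5 difference of Ccl8 missed the threshold with TMM scaling (0.93, adjusted p = 0.0501) and in the lanes of mice 3 and 4 (1.07, adjusted p = 0.129), and the change over time missed it with the authors' factor (0.95, adjusted p = 0.111). At day 1 it differed between the arms by 0.13 ± 0.30. Ccl8 stood at 142, 533, 294 and 426 scaled counts in manipulated mice 1 to 4 of day 5, against 93.2, 124, 144 and 199 in non-manipulated mice 1 to 4 of that day. Of the 3 measured genes of the regulatory cytokine pathway, Il10 rose in manipulated mice at day 1 (2.06) and day 2 (1.29). The growth factor gene Tgfb1 fell in them at day 2 (-0.84) and day 5 (-0.82). Of all genes, 42.1%, 31.6% and 24.6% passed at days 1, 2 and 5. Both calls of Tgfb1 were lost with the authors' factor and without Rpl19, and within the sets of lanes Tgfb1 passed only at day 2 in the other lanes (-1.36). Within the sets of lanes Il10 passed at day 1 in the other lanes (2.39) and at day 5 in those of mice 3 and 4 (1.97). Of the 5 scavenger and pattern receptors, 3 rose in manipulated mice at day 1, the activating receptor Trem1 (2.04), the endotoxin receptor Tlr4 (1.11) and its co-receptor Cd14 (1.00), where 42.1% of all genes passed. In the lanes of mice 3 and 4 none of the 3 passed by edgeR, with 1.14 for Trem1, -0.17 for Tlr4 and 0.47 for Cd14, and in the other lanes all 3 did (3.23, 1.61 and 1.41). Tlr4 was also lost with total count scaling (0.80, adjusted p = 0.153). The 50 list gene calls in the 5 comparisons of arms and of days 5 and 1 kept their direction under the 4 other scalings, and 46 of them also passed with TMM scaling, 46 with total count scaling, 41 without Rpl19 and 29 with the authors' factor.

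The sort kept donor cells with CD64 and CD11b that were low to intermediate for CD11c and lacked Ly6G and SiglecF. The monocyte markers Ly6c1 and Ccr2 and all 5 macrophage markers had values, and none of the markers listed for neutrophils, eosinophils, T, NK and B cells, epithelium, stroma and endothelium had one, so that admixture of such cells has no readout here. The dendritic cell markers Flt3 and Zbtb46 were blank.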

How the data were processed

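Groups of the 27 samples came from sample titles and the labelled day. Per the study's methods the authors pre-amplified cDNA for 16 cycles and hybridized it to barcoded probes. The deposited raw counts of 15 lanes were whole numbers without normalization, and those of manipulated day 1 mouse 5, all even, were divided by 2. Deposited values in the 12 lanes of mice 3 and 4 had the unit of expected counts, whole after division by 1.333 (tolerance 0.001). A normalized table held a score, the raw value times 1 factor per sample set by the authors on housekeeping genes, and its factors served as an alternative.

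The library size was the geometric mean of Actb, Gapdh and Rpl19. All 57 genes with values entered edgeR 4.0.16 in R 4.3.3 (quasi-likelihood test, 6 group means, common coefficient of variation 0.685, 21 residual degrees of freedom), and a second fit had 12 means, for group and set of lanes. P-values were adjusted over the 57 genes by Benjamini-Hochberg and called below 0.05. The SE is the log2 fold change divided by the root of F. Replicates were separate mice. The fit was tested on simulated data. limma 3.58.1 (pseudocount 1), DESeq2 1.42.0, other scalings and exact permutation tests (scipy 1.17.1) were alternatives. Of 72 names, 69 matched RefSeq by probe identifier. The members, lists and tests were chosen with earlier results of these data known. Genes were named by these lists, up to 4 per list and comparison with the largest fold change among those that passed, and by the 5 highest correlations with each member. Not every comparison was given for every list. Changes over time were left out for the regulatory cytokines, and all but the arms at day 1 for the receptors. Some of the comparisons left out held genes that passed, Il10 over time in both arms among them. Results that need certain genes are not reported here. Counting error and pre-amplification of 100 cells both enter the spread between mice.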

Additional observations from a re-analysis of the deposited data

Results flagged for a closer look

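In 4 of the 12 sets of 4 or 5 mice examined, the highest scaled count lay far from the others by Dixon's test at the 95% level. The test was run on scaled counts without a log, where a right-skewed spread alone can give such flags. The sets are also not independent, since both genes came from the same mice, so no chance rate is given. For Mrc1 these were non-manipulated day 1 mouse 2 (216.4) and non-manipulated day 2 mouse 5 (776.9). For Siglec1 they were non-manipulated day 1 mouse 5 (22975) and non-manipulated day 2 mouse 5 (14477). All 4 were non-manipulated mice of the other lanes, and the manipulated day 1 group, which fell into 2 sets, was not among them.

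The manipulation effect at day 1 differed between the lanes of mice 3 and 4 and the other lanes by 4.08 for Mrc1 and by 8.46 for Siglec1 on the log2 scale. The change of Siglec1 between days 1 and 5 in manipulated mice differed between the same sets by -5.16. Each passed the edgeR test of the difference itself, and what lies behind them was not tested.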

How the results depend on the processing

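With 4 or 5 mice in a group and a coefficient of variation of 0.75 for Mrc1 and 0.98 for Siglec1, single mice decided several calls, and the cause of the changes below was not tested unless fewer mice were used. Every value for Mrc1 and Siglec1 is on the log2 scale unless given as a p. TMM scaling, total count scaling, the low count filter (which kept all 57 genes) and background subtraction changed no direction or call of Mrc1 or Siglec1 given in the report, except that total count scaling turned the small non-manipulated changes between days 2 and 5 to -0.12 for Mrc1 and -0.052 for Siglec1, and that background subtraction, like the scaling without Rpl19, lost the joint test of Mrc1 in manipulated mice (adjusted p = 0.0604 and 0.0563).

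With the authors' factor, which moved the median of all genes by 0.64 in the day 1 contrast of arms and by -0.84 in the change between days 1 and 5 in manipulated mice, Mrc1 passed at day 1 (2.28), and the changes between days 1 and 5 in manipulated mice no longer passed for Mrc1 (1.35; joint test 0.444 as adjusted p) or Siglec1 (1.86). The small non-manipulated changes between days 2 and 5 turned to -0.27 for Mrc1 and -0.17 for Siglec1, and 14 genes passed between days 1 and 5 in manipulated mice, against 23, of which 2 rose, against 13. In the lanes of mice 3 and 4 it brought Mrc1 at day 2 (3.20) and Siglec1 at day 5 (2.56) past the threshold, and it turned Mrc1 at day 5 in the other lanes to 0.042. Without Rpl19, Mrc1 passed at day 2 (2.00). DESeq2 called Mrc1 at day 2 (1.78), at day 5 (2.09) and between days 1 and 5 in non-manipulated mice (1.83), where it called 18 genes, against 11. limma called the step between days 1 and 2 in manipulated mice for Mrc1 (2.60) and Siglec1 (4.43), Siglec1 at day 1 (-3.62), its change of effect (4.87) and its joint test in manipulated mice (adjusted p = 0.00145), and turned the non-manipulated Siglec1 changes to 0.091 between days 1 and 2 and 0.60 between days 1 and 5. In fits of the 2 groups alone, Mrc1 (2.53) and Siglec1 (3.15) no longer passed between days 1 and 5 in manipulated mice, and Mrc1 passed in non-manipulated mice (1.83). The exact permutation test called Mrc1 at day 2 (1.78) and between days 1 and 5 in non-manipulated mice (1.97), not in manipulated mice (2.64), also called the steps between days 1 and 2 of Mrc1 in non-manipulated (1.59) and Siglec1 in manipulated mice (4.43), without adjustment over tests, and turned the non-manipulated Siglec1 change to 0.60. With the set of lanes as a block, the joint test of Siglec1 in manipulated mice passed (adjusted p = 0.0470).

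Mice of different groups share only a number. Of 63 pairs of same-numbered mice, 30 had a correlation of deviations over 0.1 (-0.64 to 0.57). With the mouse number as a replicate block the joint test of Siglec1 in manipulated mice passed (adjusted p = 0.0337), its non-manipulated change between days 1 and 5 turned to 0.79, and 7 genes passed between days 1 and 5 in non-manipulated mice, against 11.

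Without the 2 lanes of low positive controls, chosen after seeing the data, Mrc1 at day 1 turned to -0.64 and passed between days 1 and 2 in manipulated mice (4.12) and in the change of effect (2.73), and Siglec1 passed at day 1 (-6.75), between days 1 and 2 (6.999), in the change of effect (8.08) and in the joint test (adjusted p = 2.04e-05). These 2 lanes had the highest Mrc1 and Siglec1 of manipulated day 1, so the direction of these shifts was fixed beforehand. The relation of the genes was -0.024 in the lanes of mice 3 and 4, 0.22 in the other lanes and 0.18 with sets of lanes centred.

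Leaving out single mice, Mrc1 ran from 1.46 to 2.36 at day 2, from 1.35 to 2.44 at day 5, from 1.79 to 3.05 between days 1 and 5 in manipulated mice, from -0.29 to 0.80 between days 2 and 5 in manipulated mice, from -0.060 to 0.72 in non-manipulated mice, and from -0.042 to 1.22 in the change of effect. Siglec1 ran from -3.19 to -0.62 at day 1, from -0.94 to 0.96 between days 1 and 2 and from -0.26 to 1.21 between days 1 and 5 in non-manipulated mice, and from 1.94 to 4.52 in the change of effect. The difference between the sets of lanes ran for Mrc1 from 3.48 to 4.34 at day 1, from -0.19 to 2.48 at day 2, and between days 1 and 5 from -0.84 to 0.31 in manipulated and from -0.047 to 0.82 in non-manipulated mice, and for Siglec1 from -5.70 to -4.30 between days 1 and 5 in manipulated mice. Genes passing ran from 8 to 19 between arms at day 2 and from 6 to 13 between days 1 and 5 in non-manipulated mice.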
